A study of Mus musculus with 8 samples.

Results

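The immediate early genes *Fos*, *Fosl2*, *Jun*, *Junb*, *Egr1*, *Egr2*, *Egr3*, *Ier2*, *Ier3* and *Ier5* were followed in bone marrow-derived macrophages (BMDMs) with and without *Ncoa6*, a coactivator of nuclear receptors and other transcription factors. The 10 genes were named as a list, and their Ensembl identifiers were matched to mouse symbols among 50615 genes in the table, of which 50295 had a symbol. After stimulation with LPS + MSU all 10 genes rose in both genotypes, although with plain library totals for scaling *Fosl2* (in both genotypes), *Jun* and *Ier5* (in *Ncoa6*-sufficient BMDMs) had the opposite sign. Without *Ncoa6*, *Ier3* fell under both culture conditions, to 43.2% and 51.6% of its level in *Ncoa6*-sufficient BMDMs. *Ier5* was called lower with medium alone and *Ier2* with LPS + MSU, while *Ier2* was also lower with medium alone but not called (log2 fold change -0.62). Each of these calls, and those of *Ier3*, ended when certain single libraries were left out. None of the 4 *Fos* and *Jun* genes and 3 *Egr* genes among the 10 passed the test in either knockout comparison.

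The study asked what NCOA6 does in macrophages that respond to urate crystals. BMDMs of C57BL/6 background were grown from marrow for 6 days with M-CSF at 20 ng/ml, a culture step that all groups shared. Genotype and culture condition together gave 4 groups, each with 2 libraries from different mice. *Ncoa6*-sufficient BMDMs (labelled WT and Flox) came from *Ncoa6* fl/fl mice, which carry the floxed gene without Cre, and *Ncoa6*-KO BMDMs (MKO) came from *Ncoa6* fl/fl LysM CRE mice. In the latter, Cre is made from the lysozyme 2 locus, so the deletion is limited to cells of the myeloid lineage and the control mice lack the Cre allele. BMDMs of each genotype stayed in medium alone, or first received LPS (100 ng/ml) over 4 h, followed by 2 h with monosodium urate (MSU) crystals (200 µg/ml). No earlier time and no culture with LPS or MSU alone was sequenced. The responses below therefore do not show an early peak, and the parts of LPS and MSU cannot be told apart. The age of the mice was not given in the sources used here.

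Immediate early genes are transcribed within minutes of a signal from factors already present in the cell, and their mRNAs are short-lived. Serum response factor with its partners, CREB and NF-κB act on their promoters downstream of MAP kinases, and Toll-like receptors are among the receptors that set this off in macrophages. Fos and Jun proteins pair to form AP-1, Egr proteins are zinc finger transcription factors, and the *Ier* genes code for other small proteins.

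Library totals ran from 25281955 to 33673552 expected counts. The 10 genes held between 64 counts (*Egr3*) and 8828 counts (*Junb*) in a library, and all 10 passed the filter of at least 10 counts over the 8 libraries. *Ncoa6* itself, counted over the whole gene, had 1515 and 1405 normalized counts in *Ncoa6*-sufficient and 784 and 622 in *Ncoa6*-KO libraries with medium alone, and 1297 and 1173 against 563 and 526 with LPS + MSU. The paper places the loxP sites around a single exon, so counts over the whole gene do not measure how much intact *Ncoa6* mRNA was left. The 8 macrophage markers summed to between 388718 and 456126 normalized counts in *Ncoa6*-sufficient and 248931 and 288003 in *Ncoa6*-KO libraries with medium alone, and to between 507992 and 577699 against 366951 and 393405 with LPS + MSU, while the 8 T and NK cell markers summed to between 75.7 and 111 against 30.7 and 73.7, and to between 56.5 and 65.1 against 26.6 and 32.7, with *Cd3g*, *Cd8a*, *Nkg7* and *Ncr1* at 0 in every library. The 8 stromal markers summed to between 414 and 478 in *Ncoa6*-sufficient and 152 and 498 in *Ncoa6*-KO libraries with medium alone, and to between 939 and 996 against 366 and 866 with LPS + MSU. The 5 endothelial markers, with *Emcn* at 0, summed to between 533 and 712 against 365 and 379, and to between 6534 and 6926 against 3063 and 5465, and no stromal or endothelial marker was called in a knockout comparison by edgeR. The 6 B cell markers summed to between 355 and 421 against 400 and 596 with medium alone, and to between 92.8 and 96.4 against 172 and 221 with LPS + MSU, where *Ighm* alone was called, at a log2 fold change of 1.53 (adjusted p = 0.0104 by edgeR). The sums of 10 neutrophil markers, between 445 and 992, overlapped between genotypes under both conditions. The 7 dendritic cell markers summed to between 18.9 and 24.8 against 22.0 and 25.7, and to between 219 and 278 against 167 and 194, with none called in a knockout comparison by edgeR. Of the 8 macrophage markers, 3 were called lower in *Ncoa6*-KO BMDMs under each condition, *Lyz2*, the locus of the Cre allele, among them. Mean *Lyz2* counts were 240993.8 in the control and 119774.3 in the knockout group in medium, and 243835.7 against 126323.9 after stimulation. *Lyz2* thus held a large share of the macrophage marker sums, but the other markers were lower too. *Fcgr1* was called under both conditions (log2 fold changes -2.05 and -1.38), *Cd14* with medium alone (-0.78) and *Itgam* with LPS + MSU (-0.51). All 8 markers had log2 fold changes under 0 in both comparisons, with medians of -0.386 and -0.335. Whether the Cre allele itself lowered *Lyz2* was not tested. The part of the markers of all these cell types in the results below was not tested, and in bulk RNA fewer cells of a type and less RNA per cell cannot be told apart.

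Promoters are shown for *Fos* and *Egr2*, which hold matches to sequences known from immediate early promoters, and for *Ier3* and *Ier5*, whose levels differed between genotypes with medium alone. RefSeq stretches of the GRCm38.p6 assembly were used for 7 of the 10 genes, and *Egr1*, *Egr3* and *Ier2* were not searched. The stretches lie before the transcription start at chr12:85473640-85473889 on the forward strand for *Fos*, chr10:67537619-67537868 forward for *Egr2*, chr17:35821463-35821683 forward for *Ier3* and chr1:155099637-155099886 on the reverse strand for *Ier5*. Bases that the annotation gives as exon were left out, and capitals mark matches to the CArG box, the κB motif or TATAAA on either strand.
Fos: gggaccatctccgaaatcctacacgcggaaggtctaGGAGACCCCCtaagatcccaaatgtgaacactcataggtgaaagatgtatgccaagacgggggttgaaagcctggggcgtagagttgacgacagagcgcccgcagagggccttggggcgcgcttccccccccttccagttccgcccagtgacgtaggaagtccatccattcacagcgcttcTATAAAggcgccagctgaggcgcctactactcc
Egr2: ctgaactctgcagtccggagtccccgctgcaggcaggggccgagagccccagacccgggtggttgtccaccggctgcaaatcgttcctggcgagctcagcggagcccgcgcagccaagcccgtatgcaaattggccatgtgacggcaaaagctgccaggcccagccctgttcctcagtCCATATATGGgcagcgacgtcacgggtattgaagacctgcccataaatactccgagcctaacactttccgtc
Ier3: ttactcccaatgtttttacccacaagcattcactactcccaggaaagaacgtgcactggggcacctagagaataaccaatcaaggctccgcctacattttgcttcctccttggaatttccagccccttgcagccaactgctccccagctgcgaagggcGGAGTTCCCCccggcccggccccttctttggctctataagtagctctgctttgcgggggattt
Ier5: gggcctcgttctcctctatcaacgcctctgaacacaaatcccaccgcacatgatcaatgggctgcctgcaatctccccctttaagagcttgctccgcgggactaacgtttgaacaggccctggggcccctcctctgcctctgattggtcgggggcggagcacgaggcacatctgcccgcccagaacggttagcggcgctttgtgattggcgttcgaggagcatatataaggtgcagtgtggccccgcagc

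The CArG box, the site of serum response factor, was matched in *Egr2* alone among the 7 genes. It was in 4 of their 11 stretches, some of which overlap, against 1.47% of 32851 RefSeq promoter stretches of 250 bases. In the stretch shown it began 72 bases before the RefSeq start. Only 250 bases before each start were searched, so a gene without a match may hold the motif farther away. Matches to the κB motif were found in 4 of the 11 stretches, against 7.25% of all stretches. They belonged to 4 of the 7 genes (*Fos*, *Fosl2*, *Egr2* at another start, and *Ier3*). In *Fos* this match began 214 bases and in *Ier3* 92 bases before the RefSeq start. The *Ier3* distance includes 29 exonic bases that were left out of the stretch shown. TATAAA was matched in 1 of the 11 stretches, in *Fos* at 33 bases before the start, and in 12.37% of all stretches. *Ier5* held no match to any of the 6 motifs searched. The exact CRE-type sequence TGACGTCA, found in 1.55% of all stretches, and the AP-1 sequence TGANTCA, found in 6.75%, were in none of the 11 stretches. Sites that differ from these sequences in any base were not searched, so variant CRE or AP-1 sites may be present. The *Fos* stretch shown holds TGACGTAG, for example, which the search did not count. The Egr-type sequence GCGTGGGCG or GCGGGGGCG was in 1 of the 11 stretches, in *Fosl2*, and in 3.06% of all stretches. In these genes no match to one motif overlapped a match to another. These matches describe letters in a window, not bound sites.

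Levels of different genes were compared as normalized counts per kb of the longest transcript. In *Ncoa6*-sufficient BMDMs with medium alone, *Junb* stood highest at 1258 per kb, followed by *Jun* at 853 and *Ier5* at 686. *Ier2* at 228, *Fos* at 206 and *Ier3* at 194 came next, and the libraries of *Ier2* and *Fos*, and of *Fos* and *Ier3*, overlapped. Below them stood *Egr2* at 108, *Fosl2* at 57.7, *Egr1* at 31.9 and *Egr3* at 15.8 per kb. The span from *Junb* to *Egr3* was thus 79.6-fold, or 69.9-fold per kb of all annotated exons. The other neighbours in this order did not overlap.

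The order changed little with stimulation at its ends. *Junb* at 6436 per kb stayed first and *Egr3* at 46.3 last in *Ncoa6*-sufficient BMDMs with LPS + MSU. *Ier3* moved from the sixth to the fourth place at 842 per kb, next to *Ier2* at 807, with overlapping libraries. In stimulated *Ncoa6*-KO BMDMs *Egr2* at 364 per kb stood above *Fos* at 230, whereas in *Ncoa6*-sufficient BMDMs *Fos* at 349 stood above *Egr2* at 287 with overlapping libraries.

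**Figure D1:**
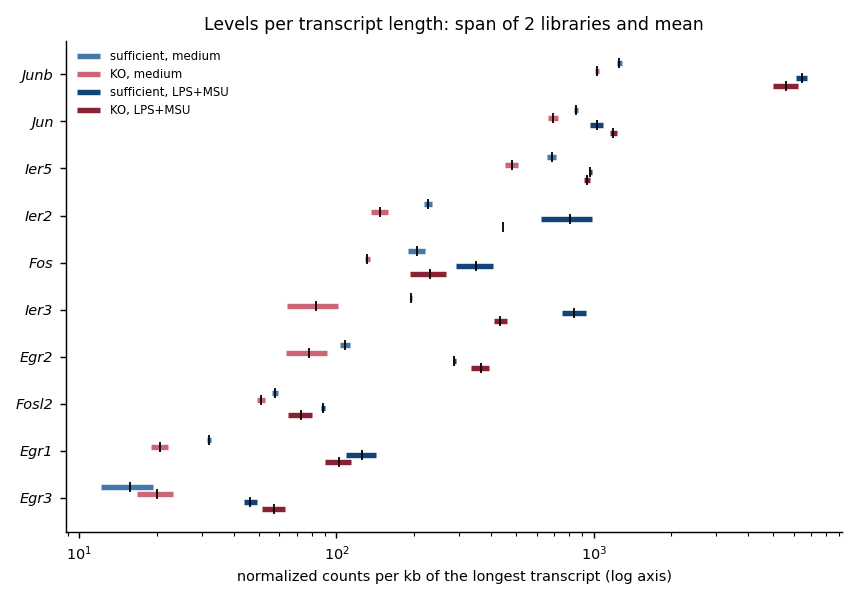
Normalized counts per kb of the longest transcript on a log axis for the 10 genes in the 4 groups, where bars span the 2 libraries and ticks mark the mean. *Junb* is the highest gene in each group, at 1258 per kb in *Ncoa6*-sufficient BMDMs with medium alone and 6436 per kb with LPS + MSU, and *Egr3* the lowest at 15.8 and 46.3 per kb.

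*Fos* encodes c-Fos, the partner that needs Jun proteins to bind DNA. With medium alone its libraries held 402 and 465 normalized counts in *Ncoa6*-sufficient and 271 and 284 in *Ncoa6*-KO BMDMs. After LPS + MSU they held 858 and 613 in *Ncoa6*-sufficient and 408 and 564 in *Ncoa6*-KO BMDMs. Both *Ncoa6*-KO libraries lay below both *Ncoa6*-sufficient libraries under each condition, with the second *Ncoa6*-KO library close to the second *Ncoa6*-sufficient library after stimulation. The knockout log2 fold changes were -0.64 (SE 0.182, adjusted p = 0.119 by edgeR) with medium alone and -0.60 (SE 0.181, adjusted p = 0.109) with LPS + MSU, neither past the threshold. DESeq2 called the second of these (adjusted p = 0.0417), as did edgeR without the filter on low counts (adjusted p = 3.92e-04) or without the second stimulated *Ncoa6*-sufficient library (-0.83, adjusted p = 0.0445). *Fos* rose with LPS + MSU by a log2 fold change of 0.76 in *Ncoa6*-sufficient BMDMs and 0.81 in *Ncoa6*-KO BMDMs (adjusted p = 0.00351 and 0.00337 by edgeR), which library totals reduced to 0.09 and 0.18, no longer past the threshold.

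*Fosl2* encodes Fra-2, a Fos protein without the strong activation domain of c-Fos. It had 366 and 389 normalized counts in *Ncoa6*-sufficient and 345 and 322 in *Ncoa6*-KO libraries with medium alone, and 568 and 589 against 423 and 526 with LPS + MSU. The genotypes did not overlap under either condition, but they stood close together with medium alone. Knockout log2 fold changes were -0.18 (SE 0.122, adjusted p = 0.634 by edgeR) and -0.29 (SE 0.124, adjusted p = 0.263). *Fosl2* rose with LPS + MSU by 0.62 and 0.51 on the log2 scale in *Ncoa6*-sufficient and *Ncoa6*-KO BMDMs (adjusted p = 0.00123 and 0.00516 by edgeR), against -0.05 and -0.13 with library totals. Without the second *Ncoa6*-KO library with LPS + MSU the rise in *Ncoa6*-KO BMDMs was 0.35 (adjusted p = 0.0593).

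*Jun*, whose protein c-Jun binds DNA alone or with a Fos protein, was ordered in opposite ways under the culture conditions. With medium alone its *Ncoa6*-sufficient libraries held 2663 and 2777 and its *Ncoa6*-KO libraries 2325 and 2123 normalized counts. With LPS + MSU the values were 3099 and 3472 in *Ncoa6*-sufficient and 3678 and 3917 in *Ncoa6*-KO libraries. *Ncoa6*-KO libraries were thus below all *Ncoa6*-sufficient libraries with medium alone and above them after stimulation. The knockout log2 fold changes were -0.29 (SE 0.0960, adjusted p = 0.193 by edgeR) and 0.21 (SE 0.0963, adjusted p = 0.298), neither of them called. *Jun* had the smallest response to LPS + MSU of the 10 genes in *Ncoa6*-sufficient BMDMs, where it rose by a log2 fold change of 0.27 (SE 0.0962, adjusted p = 0.0319 by edgeR), but fell with library totals at -0.40 (adjusted p = 0.00402). That rise was no longer called without the first *Ncoa6*-sufficient library with medium alone (0.25, adjusted p = 0.138), without the second (0.31, adjusted p = 0.0716), without the second *Ncoa6*-sufficient library with LPS + MSU (0.24, adjusted p = 0.115) or without the filter on low counts (0.24, adjusted p = 0.0729). In *Ncoa6*-KO BMDMs *Jun* rose by 0.77 (SE 0.0966, adjusted p = 4.10e-05 by edgeR), or by 0.14 with library totals (adjusted p = 0.241). *Jun* shares 689 bp with the antisense gene *Junos*, and whether the counting used strand was not given in the sources used here.

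*Junb* encodes JunB, which competes with c-Jun for Fos partners and is induced by Toll-like receptor ligands. It had the largest response of the 10 genes in both genotypes. In medium its libraries held 2230 and 2322 normalized counts in *Ncoa6*-sufficient and 1835 and 1891 in *Ncoa6*-KO BMDMs. After LPS + MSU these were 12230.3 and 11054 in *Ncoa6*-sufficient and 8981 and 11291 in *Ncoa6*-KO BMDMs, so the genotypes overlapped only after stimulation. *Junb* rose by log2 fold changes of 2.35 (SE 0.124, adjusted p = 3.46e-08 by edgeR) and 2.44 (SE 0.125, adjusted p = 2.76e-08), a 5.12-fold and a 5.44-fold change, or 1.68 and 1.81 on the log2 scale with library totals. The knockout log2 fold changes were -0.29 (adjusted p = 0.332) and -0.20 (adjusted p = 0.431). *Junb* overlaps *Prdx2* on the opposite strand over 351 bp.

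*Egr1*, a zinc finger factor that is a standard readout of serum response factor and ERK activity, had 140 and 145 normalized counts in *Ncoa6*-sufficient and 99.4 and 85.2 in *Ncoa6*-KO libraries with medium alone. With LPS + MSU the libraries held 640.1 and 489 in *Ncoa6*-sufficient and 406 and 512 in *Ncoa6*-KO BMDMs. The genotypes were apart with medium alone and overlapped after stimulation. The knockout log2 fold change with medium alone was -0.62 (SE 0.183, adjusted p = 0.135 by edgeR), and it was -0.30 (SE 0.160, adjusted p = 0.383) with LPS + MSU. *Egr1* rose 3.95-fold in *Ncoa6*-sufficient (log2 fold change 1.98, adjusted p = 1.68e-06 by edgeR) and 4.95-fold in *Ncoa6*-KO BMDMs (2.31, adjusted p = 7.44e-07).

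*Egr2*, which takes part in myeloid and lymphoid differentiation, was like *Jun* in the order of its libraries. With medium alone its *Ncoa6*-sufficient libraries held 306 and 336 and its *Ncoa6*-KO libraries 273 and 189 normalized counts. With LPS + MSU they held 863 and 839 in *Ncoa6*-sufficient and 1167 and 991 in *Ncoa6*-KO BMDMs. *Ncoa6*-KO libraries were the lower ones with medium alone and the higher ones after stimulation, with a wide gap between the *Ncoa6*-KO libraries in medium. The knockout log2 fold changes were -0.46 (SE 0.161, adjusted p = 0.218 by edgeR) and 0.34 (SE 0.150, adjusted p = 0.267). With medium alone the value was -0.23 without the second *Ncoa6*-KO library in medium (adjusted p = 0.602) and -0.76 without the first, where it was called (adjusted p = 0.0324 by edgeR). *Egr2* rose 2.66-fold in *Ncoa6*-sufficient BMDMs (log2 fold change 1.41, adjusted p = 1.38e-05 by edgeR) and 4.64-fold in *Ncoa6*-KO BMDMs (2.21, adjusted p = 4.27e-07).

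*Egr3*, a related zinc finger factor, was the gene with the fewest counts. It had 48.0 and 76.6 normalized counts in *Ncoa6*-sufficient and 66.0 and 91.3 in *Ncoa6*-KO libraries with medium alone, and 172 and 193 against 249.6 and 203 with LPS + MSU. *Egr3* was the only one of the 10 genes whose mean with medium alone was higher in *Ncoa6*-KO BMDMs, and its libraries overlapped there. The knockout log2 fold changes were 0.34 (95% interval from -0.22 to 0.89, adjusted p = 0.663 by edgeR) and 0.31 (95% interval from -0.20 to 0.82, adjusted p = 0.545). Its rise with LPS + MSU was 2.94-fold in *Ncoa6*-sufficient and 2.89-fold in *Ncoa6*-KO BMDMs (adjusted p = 2.38e-04 and 2.14e-04 by edgeR).

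*Ier2* encodes a nuclear protein with a part in transcription. In unstimulated cultures its libraries held 335 and 359 normalized counts in *Ncoa6*-sufficient and 242 and 207 in *Ncoa6*-KO BMDMs. After LPS + MSU they held 1503 and 953 in *Ncoa6*-sufficient and 677 and 673 in *Ncoa6*-KO BMDMs. The first *Ncoa6*-sufficient library stood far above the second there, and both *Ncoa6*-KO libraries lay below. *Ier2* fell without *Ncoa6* in stimulated cells to 55.0% of its level, a log2 fold change of -0.86 (SE 0.178, adjusted p = 0.0267 by edgeR). That call ended without either library of *Ncoa6*-sufficient BMDMs in medium (both -0.86, adjusted p = 0.0567 and 0.0555), without the first stimulated *Ncoa6*-sufficient library (-0.51, adjusted p = 0.152), without the first (-0.89, adjusted p = 0.0905) or second (-0.86, adjusted p = 0.187) stimulated *Ncoa6*-KO library, and in a fit of only the 4 libraries compared (-0.86, adjusted p = 0.0679). Its log2 fold change with medium alone was -0.62 (SE 0.188, adjusted p = 0.149 by edgeR). *Ier2* rose with LPS + MSU 3.54-fold and 3.0-fold in *Ncoa6*-sufficient and *Ncoa6*-KO BMDMs (adjusted p = 5.75e-06 and 2.73e-05 by edgeR).

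*Ier3*, also called IEX-1, encodes a membrane-associated protein that affects survival under stress and is a target of NF-κB. It showed the largest knockout difference of the 10 genes under both conditions. With medium alone the *Ncoa6*-sufficient libraries held 222 and 218 normalized counts and the *Ncoa6*-KO libraries 115 and 72.9. After LPS + MSU the values were 1053 and 853 against 520.1 and 462. Both *Ncoa6*-KO libraries were low and the genotypes did not overlap under either condition. *Ier3* fell, with log2 fold changes of -1.21 (SE 0.192, adjusted p = 0.0138 by edgeR) with medium alone and -0.96 (SE 0.169, adjusted p = 0.0141) with LPS + MSU. The call with medium alone ended without the first (-1.20, adjusted p = 0.154) or second (-1.23, adjusted p = 0.0712) *Ncoa6*-sufficient library or without the second *Ncoa6*-KO library (-0.94, adjusted p = 0.0502) in medium. With LPS + MSU it ended without the first *Ncoa6*-sufficient (-0.81, adjusted p = 0.139) or the second *Ncoa6*-KO library (-0.88, adjusted p = 0.145). *Ier3* rose 4.33-fold with LPS + MSU in *Ncoa6*-sufficient and 5.17-fold in *Ncoa6*-KO BMDMs (adjusted p = 1.25e-06 and 1.09e-06 by edgeR), and its stimulated *Ncoa6*-KO libraries still lay at 51.6% of the *Ncoa6*-sufficient level.

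*Ier5* encodes a protein that acts on heat shock factor 1, and it was among the most abundant of the 10 genes. It had 2343 and 2150 normalized counts in *Ncoa6*-sufficient and 1665 and 1476 in *Ncoa6*-KO libraries with medium alone. With LPS + MSU it had 3148 and 3221 in *Ncoa6*-sufficient and 3003 and 3179 in *Ncoa6*-KO libraries. The genotypes were apart with medium alone and overlapped after stimulation. *Ier5* fell to 69.9% with medium alone, a log2 fold change of -0.52 (SE 0.0952, adjusted p = 0.0250 by edgeR), and its log2 fold change was -0.04 (95% interval from -0.25 to 0.17, adjusted p = 0.869) with LPS + MSU. The call ended without the first (-0.45, adjusted p = 0.310) or second (-0.58, adjusted p = 0.0764) *Ncoa6*-sufficient library or the second *Ncoa6*-KO library (-0.43, adjusted p = 0.126) in medium, without either stimulated *Ncoa6*-sufficient library (both -0.48, adjusted p = 0.0503 and 0.0510), and in a fit of only the 4 libraries compared (-0.49, adjusted p = 0.0603). *Ier5* rose with LPS + MSU by 0.50 in *Ncoa6*-sufficient BMDMs and 0.98 in *Ncoa6*-KO BMDMs on the log2 scale (adjusted p = 8.49e-04 and 5.77e-06 by edgeR), against -0.17 and 0.34 with library totals.

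**Figure D2:**
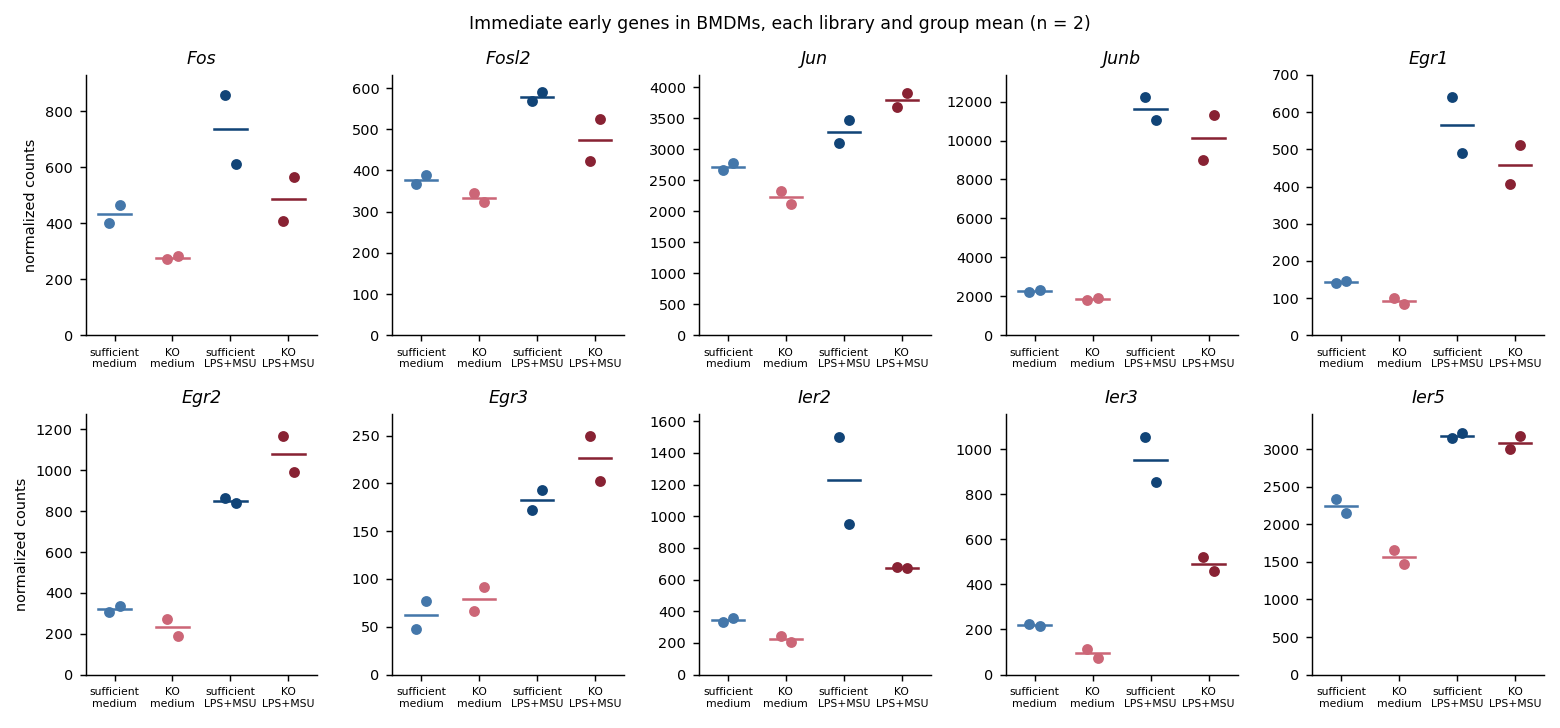
Normalized counts of the 10 genes in each of the 8 libraries (points), with the mean of the 2 libraries of a group (bars) on linear axes that start at 0, where KO stands for *Ncoa6*-KO and sufficient for *Ncoa6*-sufficient BMDMs. *Ier3* stands at 222 and 218 against 115 and 72.9 with medium alone, and *Jun* and *Egr2* change their order between the culture conditions.

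Over the list, levels with medium alone were mostly lower in *Ncoa6*-KO BMDMs. Both *Ncoa6*-KO libraries were below both *Ncoa6*-sufficient libraries for 9 of the 10 genes, where 24.5% of the 17625 tested genes were. An unadjusted p under 0.05 with a lower level was found for 8 of the 10 genes, against 7.86% of all tested genes. At an adjusted p under 0.05, the 2 genes *Ier3* and *Ier5* were called lower, against 1.30% of all tested genes, and none higher, against 0.573%. Without the filter on low counts *Fos*, *Egr1*, *Egr2* and *Ier2* were called lower as well by edgeR, 6 of the 10 genes, and *Ier2* was also called lower without either stimulated *Ncoa6*-sufficient library (both -0.58, adjusted p = 0.0410 and 0.0408). The median log2 fold change of the 10 genes was -0.49, beside -0.03 over all tested genes. The 10 values share the same 4 libraries, and the list was put together with earlier results of these data known.

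With LPS + MSU the genes were split. *Fos*, *Fosl2*, *Ier2* and *Ier3* were lower in *Ncoa6*-KO BMDMs without overlap (4 of 10, against 22.7% of all tested genes), and *Jun*, *Egr2* and *Egr3* were higher without overlap (3 of 10, against 24.7%), while *Junb*, *Egr1* and *Ier5* overlapped. Unadjusted p-values under 0.05 were found for 4 genes lower and 1 gene, *Egr2*, higher, against 8.17% and 9.21% of all tested genes. The 2 genes *Ier2* and *Ier3* were called lower at an adjusted p under 0.05, against 1.63% of all tested genes, and none higher, against 1.96%. Their list median was -0.24, beside 0.00 over all tested genes.

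**Figure D3:**
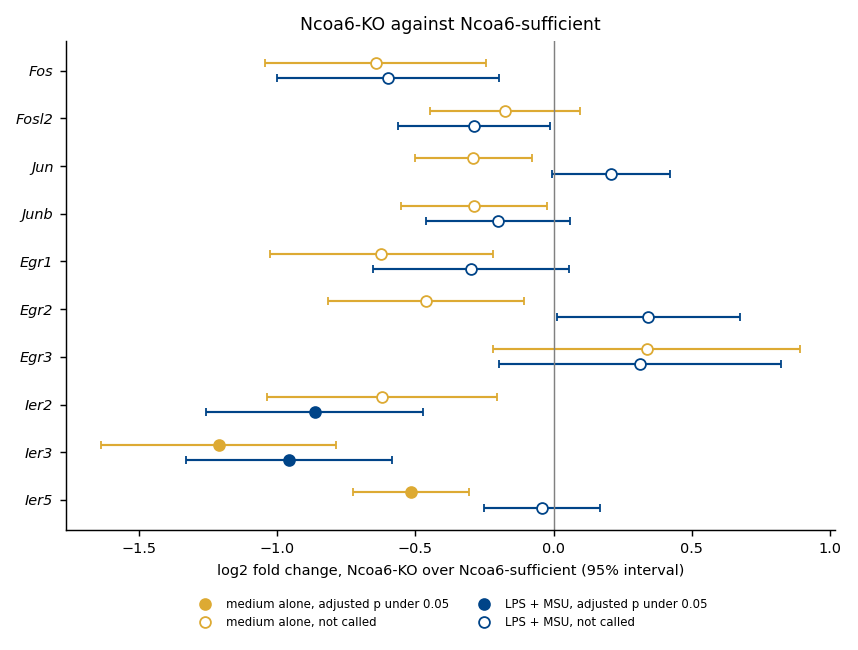
Log2 fold change of *Ncoa6*-KO over *Ncoa6*-sufficient BMDMs with 95% intervals from edgeR for each gene under each culture condition, with filled points for an adjusted p under 0.05. *Ier3* lies at -1.21 and -0.96, the points of *Jun* and *Egr2* lie on opposite sides of 0 under the culture conditions, and those of *Egr3* lie above 0 under both.

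All 10 genes rose in *Ncoa6*-sufficient BMDMs and all 10 in *Ncoa6*-KO BMDMs at an adjusted p under 0.05 by edgeR with TMM scaling, where 24.7% and 25.2% of all tested genes rose and 30.5% and 27.9% fell. The list medians of the log2 fold change were 1.48 and 1.56, beside -0.12 and -0.07 over all tested genes. The TMM factors were 1.23 to 1.29 in medium and 0.766 to 0.829 with LPS + MSU, so the choice of scaling bears on this comparison. With library totals, an alternative added after these factors were seen, the median of all genes moved by -0.66 and -0.63, and 6 of the 10 genes rose in *Ncoa6*-sufficient BMDMs and 7 in *Ncoa6*-KO BMDMs, while *Jun* fell in *Ncoa6*-sufficient BMDMs. *Junb*, *Egr1*, *Egr2*, *Egr3*, *Ier2* and *Ier3* rose under either scaling in both genotypes, and *Ier5* did in *Ncoa6*-KO BMDMs. DESeq2 size factors moved the median of all genes by 0.11 and 0.06 and kept all 10 genes called in both genotypes.

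**Figure D4:**
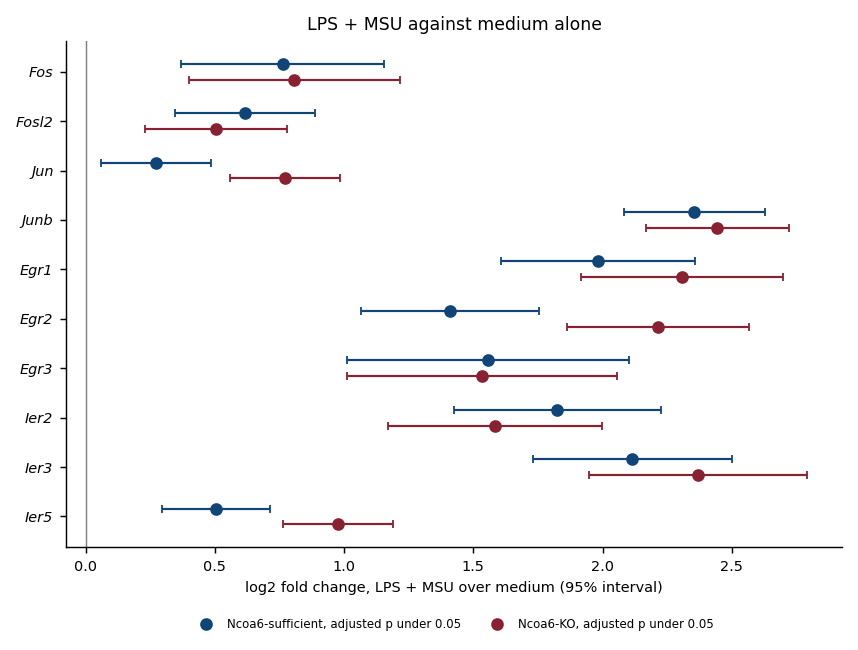
Log2 fold change of LPS + MSU over medium alone with 95% intervals from edgeR with TMM scaling, for each gene in *Ncoa6*-sufficient and *Ncoa6*-KO BMDMs. Values run from 0.27 (*Jun*) to 2.35 (*Junb*) in *Ncoa6*-sufficient and from 0.51 (*Fosl2*) to 2.44 (*Junb*) in *Ncoa6*-KO BMDMs, and library totals turned the sign for *Fosl2* in both genotypes and for *Jun* and *Ier5* in *Ncoa6*-sufficient BMDMs.

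Whether the response to LPS + MSU differed between genotypes was asked of the genotype-by-stimulus interaction in the same model. No gene of the 10 was called by edgeR or DESeq2, and 0.00% of all tested genes were called by edgeR. An unadjusted p under 0.05 with a larger response in *Ncoa6*-KO BMDMs was found for 3 of the 10 genes, against 4.11% of all tested genes. These were *Egr2*, with a difference of 0.81 on the log2 scale (95% interval from 0.32 to 1.29, adjusted p = 0.536), *Jun*, with 0.50 (95% interval from 0.20 to 0.80, adjusted p = 0.536), and *Ier5*, with 0.47 (95% interval from 0.18 to 0.77, adjusted p = 0.548 by edgeR). *Egr2* was called without the filter (0.81, adjusted p = 0.00216 by edgeR), and with the library number as a block within genotype *Egr2*, *Jun* and *Ier5* were called (adjusted p = 8.06e-04, 0.00778 and 0.0176). In each the *Ncoa6*-KO libraries began lower in medium and reached or passed the *Ncoa6*-sufficient libraries after stimulation. The differences of the other 7 genes ran from -0.24 (*Ier2*) to 0.33 (*Egr1*), each with a 95% interval that held 0.

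Genes that work with or above the 10 were followed in lists of the same kind. Of 15 other genes of the AP-1 and bZIP families, none was called with medium alone and 2 were with LPS + MSU. *Maf*, which encodes the macrophage factor c-Maf, had 16528 and 13257 normalized counts in stimulated *Ncoa6*-sufficient and 8066 and 6581 in *Ncoa6*-KO libraries, a log2 fold change of -1.02 (SE 0.137, adjusted p = 0.00471 by edgeR). *Mafg*, a small Maf protein, rose by 0.58 on the log2 scale (adjusted p = 0.0316 by edgeR). The median log2 fold changes of the list were 0.02 and 0.02 in the knockout comparisons. *Batf*, *Batf2* and *Jdp2* had the largest responses to LPS + MSU of this list in *Ncoa6*-sufficient BMDMs, at log2 fold changes of 4.13, 5.30 and 3.87, and 4.19, 5.55 and 4.63 in *Ncoa6*-KO BMDMs.

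Of 40 other immediate early genes, 39 were tested. With medium alone *Nr4a3*, an orphan nuclear receptor, was the only call, at 2.25 and 2.58 normalized counts in *Ncoa6*-sufficient and 9.04 and 10.5 in *Ncoa6*-KO libraries (log2 fold change 1.96, SE 0.435, adjusted p = 0.0499 by edgeR), levels near the lower limit of detection. With LPS + MSU 3 genes fell and 3 rose. *Zfp36*, which encodes the mRNA decay factor tristetraprolin, had 24752 and 17221 normalized counts in *Ncoa6*-sufficient and 12180.0 and 11653 in *Ncoa6*-KO libraries (log2 fold change -0.82, SE 0.147, adjusted p = 0.0155 by edgeR). *Btg2*, an antiproliferative partner of the mRNA deadenylase complex, fell by 1.21 on the log2 scale (adjusted p = 0.00518), and *Trib1*, a pseudokinase, fell by 0.80 (adjusted p = 0.0155). *Bhlhe40*, a transcriptional repressor, rose by 1.15 (adjusted p = 0.0104), *Rhob*, a small GTPase, by 0.82 (adjusted p = 0.00904) and *Ppp1r15a*, which encodes a phosphatase subunit of the stress response, by 0.55 (adjusted p = 0.0219). The list medians were 0.01 and -0.03. *Pim1* and *Csrnp1*, with *Nr4a3*, had the largest responses to LPS + MSU in *Ncoa6*-sufficient BMDMs, at log2 fold changes of 3.65, 3.70 and 5.87, and 3.75, 3.26 and 4.37 in *Ncoa6*-KO BMDMs.

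Among 11 genes for SRF, its partners, CREB factors and the Egr corepressors, *Nab2* was the only call with medium alone. *Nab2*, which encodes a corepressor that binds Egr proteins, had 966 and 908 normalized counts in *Ncoa6*-sufficient and 661 and 576 in *Ncoa6*-KO libraries (log2 fold change -0.60, SE 0.0998, adjusted p = 0.0177 by edgeR). With LPS + MSU *Mrtfb*, an actin-regulated SRF coactivator, rose without *Ncoa6* by 0.64 (adjusted p = 0.0236). It fell with stimulation by 2.48 in *Ncoa6*-sufficient BMDMs on the log2 scale, next to *Elk3*, an ETS partner of SRF, which fell by 2.64, and *Mrtfa*, which fell by 1.04. Of 22 kinases of the MAP kinase pathways none was called in a knockout comparison by edgeR, and their log2 fold changes lay between -0.30 and 0.12 in medium and between -0.33 and 0.39 after LPS + MSU. *Mapkapk2*, the p38 target kinase, rose with stimulation by a log2 fold change of 3.18 in *Ncoa6*-sufficient BMDMs, whereas *Map2k6*, which activates p38, fell by 2.88 and *Map3k1* fell by 2.27. Of 10 mRNA decay genes, *Zfp36* and *Btg2* fell without *Ncoa6* with LPS + MSU as given above, and none was called with medium alone. The endonuclease gene *Zc3h12a* and *Zfp36* rose with stimulation by log2 fold changes of 2.86 and 3.10 in *Ncoa6*-sufficient BMDMs, while *Zfp36l1*, a relative of *Zfp36*, fell by 3.35.

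The knockout calls of these related genes were lost as single libraries were left out, while their log2 fold changes kept their sign, from -1.20 to -0.87 for *Maf*, from -1.43 to -0.98 for *Btg2* and from 1.86 to 2.07 for *Nr4a3*. Each of the calls with LPS + MSU ended both without the first stimulated *Ncoa6*-sufficient library and without the second stimulated *Ncoa6*-KO library, with adjusted p-values up to 0.270 (*Mafg*). The call of *Nab2* ended without any of 3 libraries in medium (adjusted p up to 0.239) and that of *Nr4a3* without any of the 8 libraries (adjusted p from 0.0662 to 0.418), all by edgeR.

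**Figure D5:**
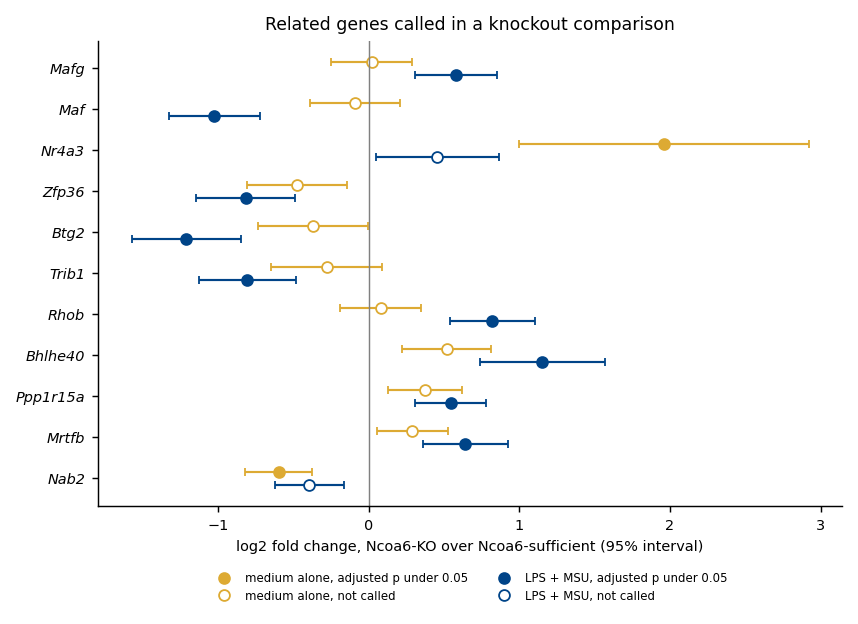
Log2 fold change of *Ncoa6*-KO over *Ncoa6*-sufficient BMDMs with 95% intervals from edgeR for the 11 related genes called in at least one knockout comparison, with filled points for an adjusted p under 0.05. *Maf* (-1.02) and *Btg2* (-1.21) lie lowest and *Bhlhe40* (1.15) highest with LPS + MSU, and *Nr4a3* at 1.96 is highest with medium alone.

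The genes outside the list with the most similar course over the 8 libraries were ranked by Pearson's r with the mean standardized log2 level of the 10 genes, among 11209 other genes that averaged 50 or more normalized counts. *Gm45752* (r = 0.998), *D730005E14Rik* (0.995), *Mefv* (0.994), *Gm28043* (0.994) and *Saa3* (0.994) came first. The 10 genes themselves had r between 0.847 (*Egr3*) and 0.997 (*Egr1*). Each of the 10 is part of the mean it was compared with, so their r cannot be set against those of other genes. *Mefv*, which encodes pyrin, had 19.5 and 24.9 normalized counts in *Ncoa6*-sufficient and 8.34 and 10.5 in *Ncoa6*-KO libraries with medium alone, and 191 and 146 against 116 and 127 with LPS + MSU. *Saa3*, an acute phase gene, had 603 and 436 against 145 and 113 with medium alone and 22608 and 17507 against 12279 and 11471 with LPS + MSU. The 8 libraries share the split between medium and LPS + MSU, which sets most of such an r, so the values describe the libraries and carry no p-value.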

How the data were processed

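Poly(A) RNA of BMDMs was sequenced in 8 mouse libraries from stranded TruSeq kits, 2 in each of 4 groups. The authors aligned the reads with STAR 2.7.3a to GRCm38 and deposited expected counts per gene from RSEM 1.3.3, not normalized (versions from the submitters' processing notes). No column of the table was left unused, and the study's human libraries were not analysed here.

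Expected counts were rounded, and 17625 genes whose 8 libraries summed to at least 10 were kept. edgeR 4.0.16 in R 4.3.3 fitted the 4 groups together with TMM scaling and a quasi-likelihood test (4 residual degrees of freedom, median biological coefficient of variation 0.114). P-values were adjusted by Benjamini-Hochberg over all tested genes, and a gene was called at an adjusted p under 0.05. The 2 libraries of a group came from different mice. An exact permutation test of 2 libraries against 2 cannot go below 0.333, so p-values rest on a spread shared over genes and groups. To give normalized counts, each library was brought to an effective size of 29335013, the mean.

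Gene positions and lengths came from a GENCODE annotation of GRCm38, promoter stretches from RefSeq. The members and the lists of related genes were chosen with earlier results of these data known. Named genes are all 10 members, every gene of the lists called in a knockout comparison or the interaction, the 3 per list with the largest called response in *Ncoa6*-sufficient BMDMs at a mean of at least 50 normalized counts, and the 5 genes most like the members. Alternatives were DESeq2 1.42.0, its size factors in edgeR, filterByExpr, no filter, limma-voom (limma 3.58.1) without rounding, replicate number as a block (overall or within genotype), only the 4 libraries compared, each library left out in turn and, chosen after seeing the data, library totals without TMM. Where a library was left out, the lone library of its group was assumed to vary like the other groups. One gene of the lists is not reported here and was left out of their counts and medians. The code was tested on simulated data.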

Additional observations from a re-analysis of the deposited data

Results flagged for a closer look

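The knockout effect of *Jun* and *Egr2* pointed in opposite directions under the culture conditions, with all *Ncoa6*-KO libraries below all *Ncoa6*-sufficient libraries with medium alone and above them with LPS + MSU. The difference between the effects was 0.50 on the log2 scale for *Jun* (adjusted p = 0.536 by the edgeR interaction test) and 0.81 for *Egr2* (adjusted p = 0.536 by the edgeR interaction test). Neither passed the adjustment over all tested genes with the filter and no block. *Egr2* passed without the filter on low counts (adjusted p = 0.00216 by edgeR), and both passed with the library number as a block within genotype (adjusted p = 0.00778 for *Jun* and 8.06e-04 for *Egr2* by edgeR). With a library left out the difference ran from 0.37 to 0.56 for *Jun* and from 0.57 to 1.10 for *Egr2*, and over the other alternatives from 0.44 to 0.54 and from 0.75 to 0.84.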

How the results depend on the processing

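Of 420 values of the 10 genes recomputed under settings that kept all libraries or only those compared, 393 kept their direction and side of the threshold, 13 passed it newly, 6 no longer passed and 8 turned sign. With library totals the sign turned for *Ier5* in the knockout comparison with LPS + MSU (0.029), for *Fosl2* (-0.054), *Jun* (-0.40) and *Ier5* (-0.17) in the response of *Ncoa6*-sufficient and *Fosl2* (-0.13) in that of *Ncoa6*-KO BMDMs, by the scaling itself, and for *Egr3* in the interaction (0.01). *Fos* in the interaction was -0.011 with DESeq2 and -0.012 with its size factors in edgeR. With a library left out, the interaction spanned 0 for *Fos* (-0.25 to 0.26), *Junb* (-0.13 to 0.19), *Egr3* (-0.39 to 0.28), *Ier2* (-0.58 to 0.076) and *Ier3* (-0.018 to 0.64).

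The number of the 10 genes called with medium alone, 2, was 6 without the filter and 1 with only the 4 libraries compared, and 0 to 3 with a library left out. With LPS + MSU it was 1 rather than 2 with only the 4 libraries compared, 3 (with *Fos*) with DESeq2, without the filter and with the replicate block, and 0 to 3 with a library left out. The interaction called 1 gene (*Egr2*) without the filter rather than 0. Over all genes, calls in the knockout comparisons were 331 and 632, against 1152 and 1611 without the filter, 347 with LPS + MSU with only the 4 libraries compared, and 22 to 351 and 49 to 765 with a library left out. The interaction called 0 genes, or 43 with DESeq2, 269 without the filter and 0 to 16 with a library left out, and 1045 genes had an unadjusted p under 0.05. The cause of these shifts was not tested.

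Neither labels nor methods say that libraries with the same number share a mouse. The deviations of same-numbered libraries from their group means were correlated over 11216 genes. Between the culture conditions of one genotype r was 0.415 (*Ncoa6*-sufficient) and 0.41 (*Ncoa6*-KO). Across genotypes r was lower, from 0.111 to 0.239. The higher values lay where a shared mouse is possible, but 2 numbers per group cannot turn them into a pairing. The replicate block, overall or within genotype, therefore stayed an alternative. With the replicate block 4 of the 10 genes were called with medium alone (*Fos* and *Ier2* besides *Ier3* and *Ier5*), 1023 and 1532 genes in the knockout comparisons and 86 in the interaction. With the replicate block within genotype, 3 of the 10 genes (*Egr2*, *Jun* and *Ier5*) and 444 genes were called in the interaction.

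Levels per kb of all annotated exons in place of the longest transcript moved *Junb*, *Fosl2* and *Egr2* by more than the spread between libraries in *Ncoa6*-sufficient BMDMs with medium alone, and put *Fosl2* (49.0 per kb) below *Egr3* (51.4) in *Ncoa6*-KO BMDMs with LPS + MSU. P-values rest on a spread shared over genes and groups, with 2 libraries a group.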
